A study of Mus musculus with 2 samples.

Results

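The genes examined here are 33 genes of microglia and other macrophages in the embryonic mouse retina. They were taken by symbol: a probe set counted if the platform annotation gave it exactly 1 gene symbol and that symbol was in the list. The 33 genes had 52 of the 45037 probe sets on the array, and each gene took the probe set with the highest mean intensity of both arrays, as did all 18193 genes with a symbol. The list was drawn up with the ratios between these arrays known, so its ratios are a description and no test was made on them.

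The study compared the retina of a Sox11 knockout (Sox11-/-) embryo with that of a wild-type littermate, both C57BL/6 and both at embryonic day 18 (E18). Sox11 is a transcription factor of differentiating neurons, and which part of the gene was removed is not given in the labels. RNA from 1 retina of each genotype was amplified and read on 1 Affymetrix array. No genotype had a replicate, so no error or test can be given: every difference below is one between 2 arrays, and their number limits the precision.

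Microglia are the resident macrophages of retina and brain. They arise from yolk sac progenitors, enter the retina in the embryo, depend on signalling through the receptor Csf1r, and clear dying neurons. Related macrophages sit along vessels and at tissue borders and carry Mrc1, Pf4 and Stab1 beside genes shared by all macrophages. The transcription factor PU.1, the product of Spi1, is needed for this lineage and binds DNA at purine-rich sites around GGAA.

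The sequences upstream of the starts are shown for 4 of the members, and their part in the ratios was not tested. RefSeq promoter windows (build GRCm38.p6, 250 bases before to 50 after the start, on the strand of the gene) matched 26 of the 33 members, with 29 windows. Several strings of letters were searched on both strands. AGGAAGT, a PU.1-like sequence, was found in 11 of the 26 members (42.3%), against 10.7% of the 27025 genes with a window. The longer GAGGAAGT, which contains the first, was found in 5 of 26 members (19.2%), against 3.69% of all genes. ACAAAG, a sequence of the kind bound by Sox factors, was found in 6 of 26 (23.1%), against 21.0% of all genes. C1qc (chr4:136892865-136893164, minus strand), C1qb (chr4:136886151-136886450, minus strand) and Cd53 (chr3:106790100-106790399, minus strand) are shown for the PU.1-like letters, in capitals, which read ACTTCCT where the match lay on the opposite strand. Mpeg1 (chr19:12460520-12460819, plus strand), a macrophage gene, had no AGGAAGT in this window and is shown with ACAAAG in capitals. It is 1 of the 6 members with ACAAAG, whose share was near that of all genes.
C1qc: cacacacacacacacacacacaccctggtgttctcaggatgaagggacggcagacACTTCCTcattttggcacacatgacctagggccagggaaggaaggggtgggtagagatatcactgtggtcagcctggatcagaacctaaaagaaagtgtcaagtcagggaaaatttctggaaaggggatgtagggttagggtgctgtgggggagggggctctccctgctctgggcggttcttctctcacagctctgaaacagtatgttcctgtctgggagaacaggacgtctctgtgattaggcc
C1qb: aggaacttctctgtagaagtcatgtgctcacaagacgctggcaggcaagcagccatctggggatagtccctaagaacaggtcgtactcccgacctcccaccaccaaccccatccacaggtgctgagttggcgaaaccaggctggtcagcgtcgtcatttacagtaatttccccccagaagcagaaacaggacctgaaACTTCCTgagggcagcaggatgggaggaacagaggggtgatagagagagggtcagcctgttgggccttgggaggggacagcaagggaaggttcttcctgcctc
Cd53: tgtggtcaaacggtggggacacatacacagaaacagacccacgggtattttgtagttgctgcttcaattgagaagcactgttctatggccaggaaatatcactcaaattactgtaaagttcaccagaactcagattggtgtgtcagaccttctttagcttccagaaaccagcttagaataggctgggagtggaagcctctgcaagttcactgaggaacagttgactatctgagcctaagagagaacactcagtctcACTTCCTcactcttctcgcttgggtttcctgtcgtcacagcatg
Mpeg1: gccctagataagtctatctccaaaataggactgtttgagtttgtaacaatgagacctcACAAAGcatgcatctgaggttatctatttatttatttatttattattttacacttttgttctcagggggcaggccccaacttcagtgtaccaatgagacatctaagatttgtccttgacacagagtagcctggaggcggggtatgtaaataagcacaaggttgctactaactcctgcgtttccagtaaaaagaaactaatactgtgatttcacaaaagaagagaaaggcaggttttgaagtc
The AGGAAGT match began 195 bases before the start in C1qc and 53 bases before it in C1qb, while in Cd53 it lay just past the start. In Mpeg1, ACAAAG began 192 bases before the start. The other members with AGGAAGT were Ctss, Fcrls, Hpgds, Lyz2, Mrc1, P2ry12, Pf4 and Ptprc. These matches are letters in a window, and binding was not measured.

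All 33 members read higher in the knockout retina than in the wild-type retina, where 47.4% of all genes had a positive ratio. The exception under other scalings was Stab1, whose ratio was negative after quantile normalization (-0.11) and after loess (-0.08). Log2 ratios were taken as knockout minus wild type after 5 was added to each intensity, so that differences of dim genes come out too small. The median of the members was 0.76, against -0.01 over all genes, and the interquartile range of the members ran between 0.42 and 1.12, where that of all genes ran between -0.19 and 0.18. At 2-fold or more, 10 of 33 members were higher, where 1.56% of all genes were, and no member was 2-fold lower, where 1.33% of all genes were. Of the 10, only 5 were above the stand-in for background used here, 18.6, in both retinas, 3 were above it in the knockout only and 2, Trem2 and Aif1, in neither, where no fold can be read. The median intensity of the 33 was 39.1 in the knockout and 20.5 in the wild type, and their summed intensity was 2441.7 in the knockout and 1577.8 in the wild type. In a whole retina, more cells of a type and more of its RNA per cell cannot be told apart.

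Many members read low. The pooled median intensity of all probe sets, 18.6, stood in for the background, and a member at or above it is called measurable here. In both retinas 17 members were measurable, 6 were measurable in the knockout only, and 10 in neither. Of all 18193 genes, 10978 were measurable on both arrays and 63.5% on at least 1. The share of all genes measurable in the knockout only was not counted. The knockout array had the higher median, 19.7 against 17.6 in the wild type. Over the 17, log2 ratios ran between 0.03 and 1.31, and 5 were 2-fold or more. Among all 10978 genes measurable on both arrays, 47.1% had a positive ratio and 0.383% were 2-fold higher. The median of the 17 was 0.76. With every value under 18.6 set to it, 23 of 33 members were still higher in the knockout and 10 were tied, the median of the 33 was 0.54, and 30.3% of all genes had a positive ratio. Where the wild-type value was under 18.6, the knockout value over 18.6 is given as the least fold; where both were under it, the intensities are given and no fold.

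**Figure D1:**
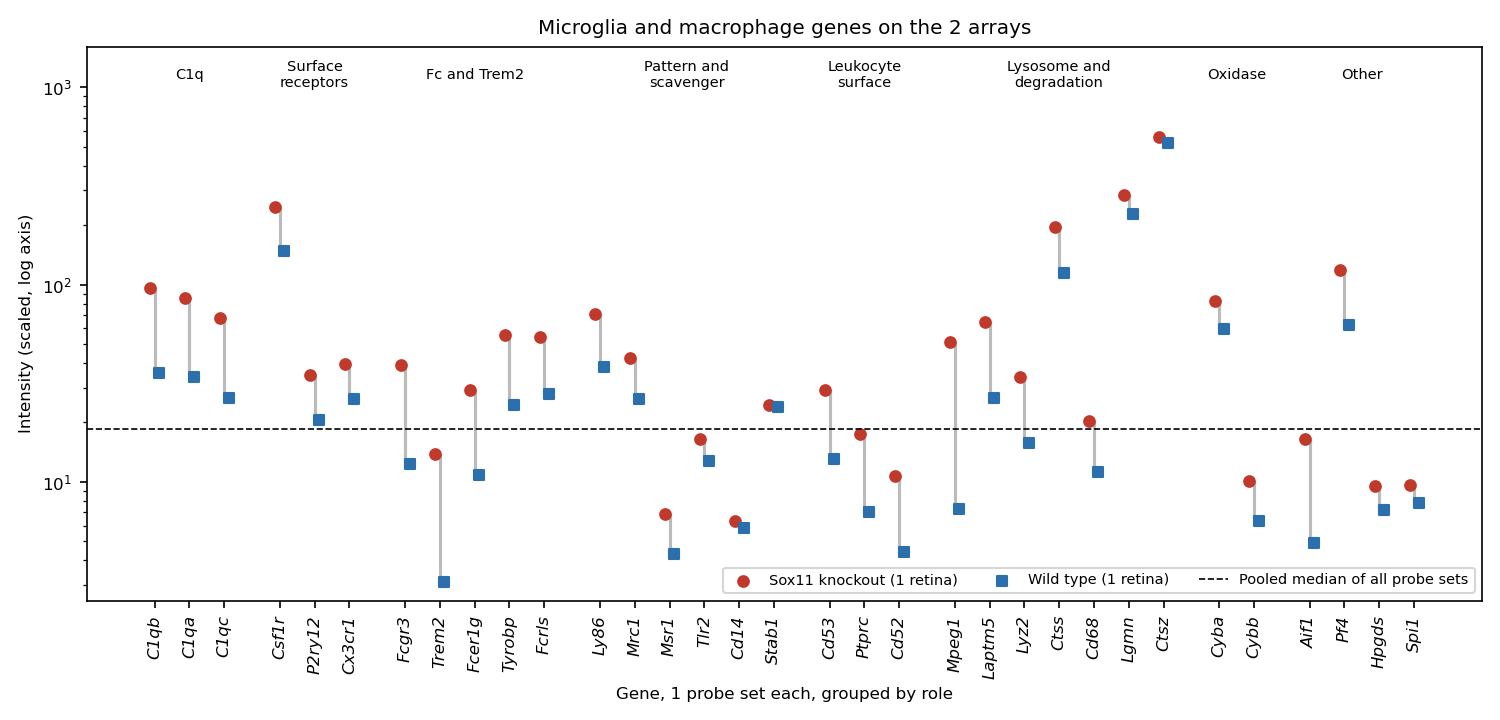
Intensity of each of the 33 members (log axis, 1 probe set each, grouped by role) in the Sox11 knockout retina (red circles) and the wild-type retina (blue squares), 1 array each; the dashed line is the pooled median of 18.6. The red circle lies above the blue square for every gene at the deposited scaling, widest apart for Mpeg1 and nearly level for Stab1, Cd14 and Ctsz.

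The genes of the C1q subunits were each more than 2-fold higher in the knockout. C1q is the recognition molecule of the classical complement pathway and is made in the nervous system mainly by microglia; its 3 chains come from C1qa, C1qb and C1qc, which are neighbours on chromosome 4. C1qa read 85.6 in the knockout and 33.8 in the wild type, a log2 ratio of 1.22. C1qb read 96.0 in the knockout and 35.7 in the wild type, a log2 ratio of 1.31. C1qc read 67.3 in the knockout and 26.5 in the wild type, a log2 ratio of 1.20. Thus each chain was measurable in both retinas and 2.53 to 2.69 times as high in the knockout by its intensities. The other C1qb probe sets gave 1.45 and 0.43.

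The signalling receptors of resident microglia were higher by less than 2-fold. Csf1r, the receptor for the growth factors CSF1 and IL-34, read 246.4 in the knockout and 147.7 in the wild type, a log2 ratio of 0.72, and its other probe sets gave 0.86 and 0.22. P2ry12, the ADP receptor that guides microglial processes, read 34.8 in the knockout and 20.5 in the wild type, a log2 ratio of 0.64. Cx3cr1, the receptor for fractalkine, read 39.5 in the knockout and 26.3 in the wild type, a log2 ratio of 0.51, with its second probe set at 0.45. The genes for the ligands of Csf1r and Cx3cr1 were read on the same arrays. Csf1 read 28.9 in the knockout and 28.6 in the wild type, and Il34 was under 18.6 in both. Cx3cl1, which encodes fractalkine, read 19.4 in the knockout and 28.7 in the wild type, a log2 ratio of -0.47.

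Fc receptors, Trem2 and the adaptors they signal through held Tyrobp, which was measured at 2-fold, and Fcgr3, with a least fold over 2. Tyrobp, the adaptor DAP12, which carries the signal of Trem2, read 55.6 in the knockout and 24.5 in the wild type, a log2 ratio of 1.04. Fcgr3, a low-affinity IgG receptor, read 39.1 in the knockout and 12.3 in the wild type, at least 2.10-fold higher. Fcer1g, the signalling chain of Fc receptors, read 29.3 in the knockout and 10.8 in the wild type, at least 1.58-fold higher. So the adaptor and the receptors were on the same side, though only Tyrobp among these was measurable in the wild type. Fcrls, an Fc receptor-like gene of mouse microglia, read 54.2 in the knockout and 27.9 in the wild type, a log2 ratio of 0.85. Trem2, a lipid-sensing receptor, read 13.9 in the knockout and 3.1 in the wild type, both under 18.6, and its second probe set was also higher in the knockout.

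Lysosomal and degradative genes ranged widely, with Ctsz nearly level and Mpeg1 far apart. Mpeg1, which encodes the pore-forming protein perforin-2 of macrophages, read 51.1 in the knockout and 7.3 in the wild type, at least 2.75-fold higher, the largest least fold among the 6 members measurable in the knockout only. Lyz2, the lysozyme of myeloid cells, read 34.0 in the knockout and 15.8 in the wild type, at least 1.83-fold higher. Cd68, a lysosomal membrane glycoprotein of macrophages, read 20.3 in the knockout and 11.2 in the wild type, at least 1.09-fold higher. These 3 macrophage genes were under 18.6 in the wild type. Ctss, the cathepsin of antigen-presenting cells, read 196.2 in the knockout and 113.8 in the wild type, a log2 ratio of 0.76. Lgmn, an asparaginyl endopeptidase, read 284.6 in the knockout and 227.1 in the wild type, a log2 ratio of 0.32. Ctsz, a carboxypeptidase found in many cell types, read 557.5 in the knockout and 523.6 in the wild type, a log2 ratio of 0.09, and its other probe sets gave 0.06 and 0.55. Laptm5, a lysosomal protein of blood cells, depended on the probe set. Its brightest read 64.7 in the knockout and 26.7 in the wild type, a log2 ratio of 1.14, but the next read 27.7 in the knockout and 33.8 in the wild type, a log2 ratio of -0.25.

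Pattern recognition and scavenger receptors had a median of 0.32 over 6 genes, and of 0.61 over the 3 that were measurable in both retinas. Ly86, which encodes the partner MD-1 of a Toll-like receptor homologue, read 71.1 in the knockout and 38.0 in the wild type, a log2 ratio of 0.82. Mrc1, the mannose receptor of border-associated macrophages, read 42.5 in the knockout and 26.2 in the wild type, a log2 ratio of 0.61. Stab1, the scavenger receptor stabilin-1, read 24.5 in the knockout and 23.9 in the wild type and was the lowest of the members, at 0.03. Of these receptors of border-associated macrophages, Stab1 was thus nearly level between the retinas. Tlr2 read 16.5 in the knockout and 12.7 in the wild type, Cd14, the lipopolysaccharide co-receptor, read 6.3 in the knockout and 5.8 in the wild type, and Msr1, a scavenger receptor, read 6.9 in the knockout and 4.3 in the wild type, all under 18.6 in both.

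The leukocyte surface genes were barely measurable. Cd53, a tetraspanin of leukocytes, read 29.2 in the knockout and 13.1 in the wild type, at least 1.57-fold higher. Ptprc, which encodes the pan-leukocyte phosphatase CD45, read 17.4 in the knockout and 7.0 in the wild type, and Cd52 read 10.7 in the knockout and 4.4 in the wild type, all under 18.6. The second probe sets of Cd53 and Ptprc went the other way, Cd53 with 2.2 in the knockout and 5.6 in the wild type and Ptprc with 0.7 in the knockout and 5.2 in the wild type, all under 18.6.

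Of the remaining members, Pf4, a CXC chemokine of platelets and some macrophages, read 118.3 in the knockout and 62.3 in the wild type, a log2 ratio of 0.87. The other 9 genes taken as platelet and megakaryocyte markers had a median of 0.11, but 6 of them, Ppbp included, were under 18.6 in both. Only Gp1bb was measurable in both retinas, with a log2 ratio of -0.23. Cyba, the small membrane subunit of the phagocyte NADPH oxidase, read 82.5 in the knockout and 59.3 in the wild type, a log2 ratio of 0.44. Its partner Cybb read 10.1 in the knockout and 6.3 in the wild type, under 18.6 in both, with 1 of its 3 probe sets lower in the knockout. Aif1, the calcium-binding protein IBA1 used to stain microglia, read 16.5 in the knockout and 4.9 in the wild type. Spi1 itself read 9.6 in the knockout and 7.8 in the wild type, and Hpgds, which makes prostaglandin D2, 9.5 in the knockout and 7.2 in the wild type. These last 3 genes were under 18.6 in both retinas.

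**Figure D2:**
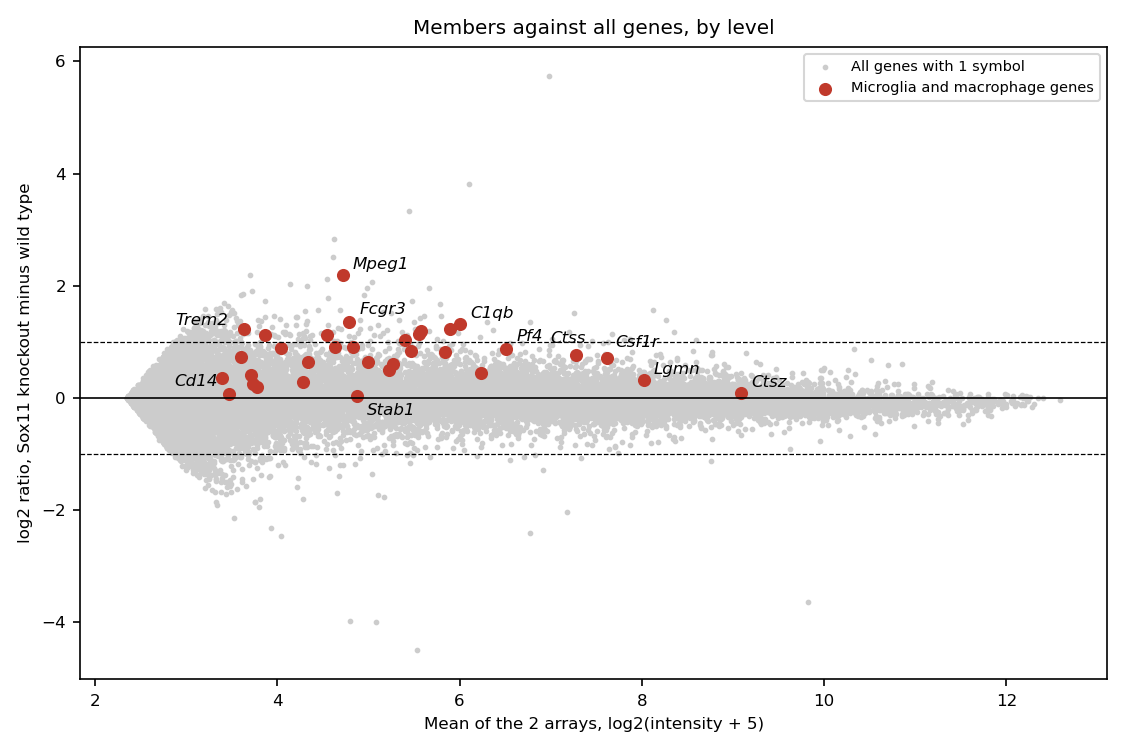
Log2 ratio (Sox11 knockout minus wild type) against the mean log2(intensity + 5) of both arrays for the 33 members (red) and all 18193 genes (grey); dashed lines mark 2-fold. The members lie above 0 at every level, though Stab1 turned negative after quantile normalization or loess, and those at the highest levels, Lgmn and Ctsz, have 0.32 and 0.09.

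The spread of all genes widened at low level, so the members were also set beside genes of like level, in 4 equal bands of mean log2 value. In the second band from the bottom, which held 23 members, 8 were 2-fold higher, 5 of them with a wild-type value under 18.6, where 2.48% of all its genes were. In the third band 2 of 6 members were 2-fold higher, where 0.308% of all its genes were, and 5 of the 6 lay above 0.60, the upper end of the central 95% of ratios there. In the top band neither Lgmn nor Ctsz lay outside the central 95%, which ran to 0.39. The lowest band held only Cd14 and Msr1.

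Probe sets of the same member did not always share a sign. Over all 52 probe sets, 47 ratios were positive and 5 negative, where 51.9% of all probe sets with a symbol were positive. The 47 include the 33 probe sets used above, all positive, so most of this count repeats those values. At 2-fold, 11 of the 52 were higher, where 1.63% of all were. How often the probe sets of other genes share a sign was not counted. Of the 10 members with several probe sets, 6 had only positive ratios and 4, Laptm5, Cd53, Ptprc and Cybb, had both signs. All 5 negative probe sets belonged to these 4 genes, and only 1 of them, for Laptm5, was measurable. For 23 members a single probe set carries the value.

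**Figure D3:**
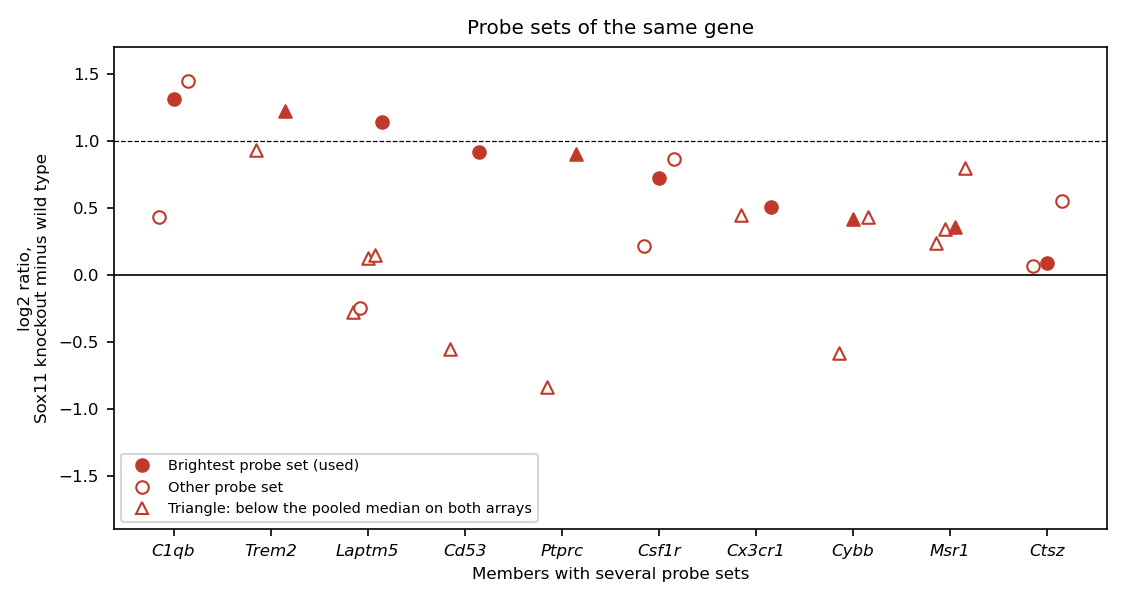
Log2 ratio (Sox11 knockout minus wild type) of every probe set of the 10 members with several; filled symbols are the probe set used and triangles lie under 18.6 in both retinas. The 5 negative symbols belong to Laptm5, Cd53, Ptprc and Cybb, and the dashed line marks 2-fold.

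Other genes of the same cells, outside the 33 members, had ratios of both signs. Of 40 further microglia and macrophage genes, 38 were on the array with a single symbol, 24 of them with a positive ratio and 13 with a negative one, and their median was 0.18. Only 6 were measurable in both retinas, with a median of 0.40. Lyve1 was the only one of them 2-fold apart and measurable in both retinas. F13a1, the coagulation factor XIII A subunit made by macrophages, read 76.3 in the knockout and 42.6 in the wild type, a log2 ratio of 0.77. Lyve1, a hyaluronan receptor of border-associated macrophages and lymphatic vessels, read 48.5 in the knockout and 18.9 in the wild type, a log2 ratio of 1.16. Sall1, a transcription factor of microglia that retinal and other cells also express, read 30.2 in the knockout and 11.1 in the wild type, at least 1.62-fold higher. Ms4a7 read 20.2 in the knockout and 6.1 in the wild type, at least 1.09-fold higher. Adgre1, the macrophage antigen F4/80, read 32.7 in the knockout and 21.3 in the wild type, a log2 ratio of 0.52. Fcgr2b, the inhibitory Fc receptor, went the other way, with 35.2 in the knockout and 48.8 in the wild type.

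Genes of signalling and the cytoskeleton in leukocytes had a positive ratio in 17 of 20, with a median of 0.26, but 13 of the 20 were under 18.6 in both retinas. Lcp1, the actin-bundling protein L-plastin, read 25.1 in the knockout and 8.2 in the wild type, at least 1.35-fold higher. Plek, a protein kinase C substrate, had a log2 ratio of 0.41 and Fermt3, a partner of integrins, 0.24, and Ncf1, an oxidase subunit, was at least 1.05-fold higher. General lysosomal genes were positive in 17 of 20 but small, with a median of 0.14. Ctsh, an aminopeptidase of the lysosome, had 1.11, with a wild-type value of 18.7, just over 18.6. Gusb, the glucuronidase, had 0.65, while Gaa and Ctsd had 0.28 each. Of 7 other complement genes with values, 6 were positive, but only Cd59a and Serping1 were measurable, at 0.18 and -0.05. Genes of activated and phagocytic microglia were positive in 13 of 19, with a median of 0.18, and 11 of the 19 were under 18.6 in both. Among them Gpnmb, which pigment cells also express, was at least 1.38-fold higher, and the receptor Axl had 0.64, the lipid carrier Apoe 0.48 and the tetraspanin Cd9 -0.25. Ligands and signals for microglia were split, with 7 of 14 positive and a median of -0.04: Anxa5, which binds exposed phosphatidylserine, had 0.82, Gas6, a bridge to dying cells, 0.52, and Cd200, a neuronal restraint on microglia, -0.26.

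Markers of other cells were read for the same retinas. Of 12 lymphocyte genes on the array, 3 were positive and 8 negative; 11 were under 18.6 in both retinas, and their summed intensity was 74.4 in the knockout and 58.6 in the wild type. The exception was Zap70, a kinase of T cells, at 43.8 in the knockout and 6.2 in the wild type; without it the sums were 30.6 in the knockout and 52.4 in the wild type, and Cd3d, Cd3e and Cd3g read no more than 1.9 in the knockout and 4.4 in the wild type. Of 12 genes of neutrophils and mast cells, 11 were under 18.6 in both and 3 were positive, with sums of 152.4 in the knockout and 200.3 in the wild type, most of it from Kit. The 7 erythroid genes were all under 18.6, with sums of 42.3 in the knockout and 29.3 in the wild type. Platelet genes were positive in 5 of 9, with sums of 186.6 in the knockout and 205.9 in the wild type. Without Gp1bb, a platelet adhesion receptor subunit at 111.7 in the knockout and 131.5 in the wild type, those sums were 74.9 in the knockout and 74.4 in the wild type. Itga2b, the platelet integrin, was at least 1.17-fold higher in the knockout and Gp5 at least 1.02-fold lower. No intensity in these lists was exactly 0, while Cd3d and S100a9 each had a log2 ratio of 0.

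Genes of tissue around the retina also read differently on the 2 arrays. Periocular mesenchyme genes were positive in 8 of 11, with sums of 700.8 in the knockout and 243.0 in the wild type; the collagen gene Col3a1 read 253.2 in the knockout and 13.3 in the wild type, at least 13.6-fold higher. For the matrix genes Dcn, Lum and Col1a1 the least folds were 7.17, 2.87 and 1.64. Of the 3 negative genes, Pdgfra read 74.9 in the knockout and 156.2 in the wild type, a log2 ratio of -1.01. Only 2 of the 11 genes, Pdgfra among them, were measurable in both retinas, with a median of 0.35. Pigment epithelium genes were positive in 8 of 10, with sums of 479.9 in the knockout and 318.0 in the wild type. Dct, an enzyme of melanin synthesis, read 122.9 in the knockout and 63.0 in the wild type, and the least folds of Tyr, Mlana and Ttr were 1.41, 1.12 and 1.12. Lens genes were positive in 9 of 13, with sums of 890.3 in the knockout and 670.9 in the wild type. Among the gamma crystallin genes, Crygf, Cryga and Crygb had log2 ratios of 1.97, 1.68 and 1.35, and for Crygd the least fold was 3.26. The alpha crystallin genes were among the 4 negative ones. Cryab read 72.6 in the knockout and 183.1 in the wild type, a log2 ratio of -1.28, and Cryaa had -0.52. Endothelial and pericyte genes were positive in 9 of 15, with a median of 0.43, and of 0.58 over the 5 that were measurable in both retinas. Esam was at least 1.34-fold higher, and Egfl7, Rgs5 and Pdgfrb had log2 ratios of 0.71, 0.66 and 0.58. Their sums were 1028.1 in the knockout and 1092.1 in the wild type, but 572.0 in the knockout and 418.9 in the wild type without Kdr, the VEGF receptor. Neural retina genes had a median of 0.04 over 13, all measurable in both retinas. Atoh7, the factor for ganglion cell formation, had 0.87, and Isl1, Lhx2 and Crx had 0.20, 0.19 and -0.26. The part of these tissues in the macrophage gene ratios was not tested.

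**Figure D4:**
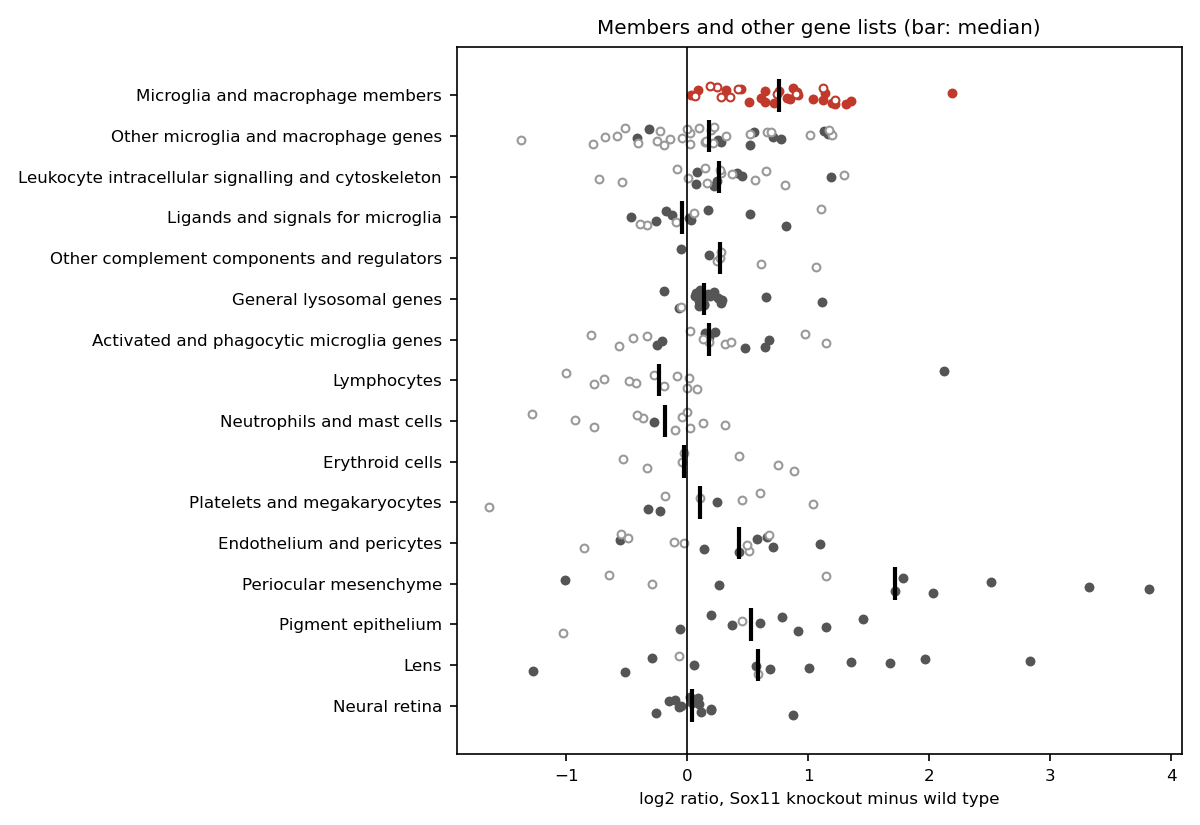
Log2 ratios (Sox11 knockout minus wild type) of the 33 members (red, top) and of the genes of 15 other lists; filled points are measurable on at least 1 array, open points are under 18.6 on both, and bars are medians. The members have their median at 0.76 with no gene below 0 before quantile normalization or loess, which turn Stab1, while lymphocyte and neutrophil genes are mostly open points at or below 0 and mesenchyme genes spread widest.

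Some facts of the arrays touch these values. The brightest Sox11 probe set read 252.4 in the knockout and 3205.7 in the wild type, a log2 ratio of -3.64, but the 6 Sox11 probe sets ran from -3.64 to 1.08. Sex-linked transcripts also differed, with Xist at 922.7 in the knockout and 12.3 in the wild type and Uty at 2.0 in the knockout and 104.9 in the wild type, so sex and genotype cannot be told apart; 32 of the 33 members are autosomal and Cybb is X-linked. The ratio of 3' to 5' control signal, a sign of RNA integrity, was 0.821 in the knockout and 0.818 in the wild type for Gapdh, and 1.21 in the knockout and 1.29 in the wild type for beta-actin. Both arrays were scaled alike, with median intensities of 19.7 in the knockout and 17.6 in the wild type.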

How the data were processed

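Retinal RNA of 1 Sox11 knockout and 1 wild-type embryo was measured on 1 array each. Per the labels' protocols, RNA was extracted with a column kit, converted to cDNA, amplified and labelled with biotin. The authors deposited linear intensities, 1 per probe set and array; the software is not given in the sources used here. Both columns had a mean of 100 after 2% of values were left out at each end, which was read from the values as scaling by the authors.

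The 64 control probe sets were left out, and no further scaling was applied. The pseudocount of 5 added before taking log2 is the 25th percentile of all intensities. GEO's platform annotation gave 1 symbol to 34945 of 45037 probe sets, several to 932 and none to 9160; only the first were named. All 33 members were found in RefSeq's gene table (GRCm38.p6), used for chromosomes and neighbours. No low-value filter was applied unless stated. At least 2-fold means a log2 ratio of 1 or more.

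With 1 array per genotype no test was run, so counts and medians are given beside those of all genes. All members are named, and of each other list up to 4 genes with the largest ratios among those reaching 18.6. Csf1, Il34, Ppbp, Adgre1, Fcgr2b, Kdr, Pdgfra, Col1a2, Cryab, Cryaa, S100a9 and the Cd3 genes lie outside that rule and were chosen after their values were seen. The members and lists were chosen with earlier results of these data known. The counting was tested on simulated data. Alternatives changed the scaling, pseudocount, low-value filter and choice of probe set. Python 3.11.15, pandas 2.3.3 and statsmodels 0.14.6 were used.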

Additional observations from a re-analysis of the deposited data

How the results depend on the processing

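The median of the members stayed positive under all 13 alternatives, between 0.54 and 0.89; 1 alternative, ranking probe sets by mean log2 value, was chosen after seeing the data. The count of members at 2-fold was 10 as reported (1.56% of all genes). It was 2 with the pseudocount at the pooled median (0.198% of all genes), 5 of 17 when both arrays had to reach that median (0.383%), 6 with values below it set to it (0.319%) and 14 with a pseudocount of 1 (5.60%). The count of positive ratios was 33 (47.4% of all genes). It was 32 of 33 after quantile normalization (44.5%) and after loess (45.4%). With every probe set counted it was 47 of 52 (51.9%). It was 23 of 33 with values below the median set to it (30.3%), where the other 10 were tied. Other settings counted fewer genes. These gave 26 of 28 without suffixed probe sets (48.9%) and 23 of 23 where the higher array reached the median (47.7%). They gave 21 of 21 with a filter on the mean log2 value (47.4%) and 17 of 17 with the filter on both arrays (47.1%). Of 353 values of single members under the alternatives, 162 were identical to those reported, and 33 of the other 191 moved by over 0.26. That is the pooled SD between probe sets of a gene on these arrays, and no spread between animals. Laptm5 reversed, to -0.28, without probe sets of suffix s, x or a, and Ptprc was -0.84 there; these settings used other probe sets, which were under 18.6 on both arrays. The Sox11 median over its probe sets was -1.20.

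Among the other lists, further macrophage genes had a median of 0.55 where the higher array reached the pooled median and 0.52 with the filter on the mean. Under the first filter the lymphocyte value was 2.12, from Zap70 alone, and that of platelets -0.23, as with the filter on both arrays. Mesenchyme moved to 1.13 with the pseudocount at the pooled median, to 2.12 with the filter on the mean, to 0.35 with the filter on both arrays, to 0.59 with low values set to the median, to 0.48 with every probe set counted and to 1.15 with that ranking of probe sets. With low values set to the median, complement and endothelial genes had 0.00 and pigment epithelium 0.16. Endothelial genes had 0.067, and erythroid genes 0.51, without suffixed probe sets. With the median over probe sets, endothelial genes had 0.14, and lens genes had 0.31 with every probe set counted. The cause of these shifts was not tested. No paired analysis was possible because each genotype has 1 array. Values under 18.6 limit what can be read for 16 members in the wild type.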
